A study of Mus musculus with 2 samples.

Results

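Cybb, Cyba, Ncf1, Ncf4 and Rac2 encode subunits of the phagocyte NADPH oxidase, and they were followed here in single-cell RNA counts from mouse bone marrow. The genes were chosen by symbol, and all 5 were present among the 32285 genes counted in each library. The phagocyte oxidase moves electrons from NADPH across a membrane to oxygen and so makes superoxide, the starting point of the oxidants with which neutrophils and monocytes kill microbes. Cybb encodes the electron-carrying subunit and Cyba its membrane partner; the proteins stabilise each other as a flavocytochrome in granule, phagosome and plasma membranes. In a resting cell Ncf1, the organiser of assembly, and Ncf4, a phosphoinositide-binding subunit, stay in the cytosol, and stimulation brings them to the membrane together with the GTPase Rac2. Loss of a core subunit causes chronic granulomatous disease.

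The cells were donor-derived (CD45.2+) Kit+ bone marrow cells taken 10 weeks after transplantation, a Kit sort that is meant to hold stem and progenitor cells. The series compared 1 control with 1 library labelled Utx-deleted, where Utx is the X-linked gene Kdm6a, whose product removes methyl groups from histone H3. Both groups shared the transplantation, the sort and the time point. The allele, the deleting strain, the age of the animals and how many were pooled are not given in the sources used here.

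Since each group was a single library, no condition had a replicate and nothing was tested. Every interval below is a 95% interval for counting error only, and a difference is a difference between these libraries. The control library held 7827 barcodes and 122130256 gene UMIs (unique molecular identifiers, each standing for 1 captured transcript), and the other 7883 barcodes and 129736034. After filters 7011 and 7206 cells were kept, with a median of 12367 and 11816.5 UMIs per cell. The barcode sets of the libraries shared 17 sequences. Kdm6a was read at 110 counts per 1000000 gene UMIs (CPM) in the control and at 103 in the library labelled Utx-deleted, which 3′ counting cannot use to check a deleted internal exon, so the label is quoted throughout. Each library mixed 2 antibody hashtags whose meaning the labels do not give. Both hashtags were carried by 204 control cells and 451 cells of the other library, as can happen in barcodes with more than 1 cell.

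Cells were put in order by UMIs of marker lists that contain none of the oxidase genes. The neutrophil path ran from progenitor-marker cells (P0) through an Elane/Mpo-intermediate stage (P1), an Elane/Mpo-high stage (N1) and a stage where azurophil and specific granule genes overlapped (N2) to Camp/Ltf-high cells with high (N3) or low (N4) Fcnb and Cebpe, and then to Retnlg/Mmp8-intermediate (N5) and Retnlg/Mmp8-high cells (N6). The monocyte path shared P0 and P1 and went on through F13a1/Irf8-high cells with low (M1), intermediate (M2) and high (M3) Ms4a6c/Ccr2 markers. The stages held 323, 155, 461, 115, 1545, 1470, 1006 and 1077 control cells from P0 to N6, and in the library labelled Utx-deleted they held 78, 55, 517, 70, 1249, 1953, 1145 and 1094. M1, M2 and M3 held 79, 122 and 75 control cells and 254, 214 and 208 of the other library. In both libraries most kept cells thus carried specific granule transcripts, and the CD117 (Kit) antibody tag took a median of 0.35% and 0.25% of a cell's tag UMIs at N6 against 15.8% and 26.4% at P0. Stage N2 held many barcodes with both hashtags, 11.3% of its control cells and 27.1% of its cells in the library labelled Utx-deleted. The N2 values are given with and without these barcodes. In bulk sums over a stage, fewer expressing cells and less RNA per cell cannot be told apart.

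Cybb lies at chrX:9435252-9487771 on the minus strand (mouse build GRCm38, GENCODE M21) and came on late and most steeply along the neutrophil path. It was read in the control at 7.94 CPM in P0, 7.37 in P1, 32.3 in N1, 1049 in N2, 2402 in N3, 2767 in N4, 3564 in N5 and 2590 in N6. In the library labelled Utx-deleted the same stages gave 10.1, 14.1, 26.5, 903, 2489, 2751, 3518 and 2704 CPM. Both libraries thus had their highest Cybb CPM at N5. As a fold the step between N1 and N2 was the steepest of the path in each, while the rise in CPM was larger from N2 to N3. The lowest of these levels were at the level of free RNA: specific granule transcripts, which belong to later cells, were read at 3.31 to 4.47 UMIs per 10000 in P0 and P1, and transcripts leaking in the same ratio would give 9.16 CPM of Cybb in control P0 and 11.1 in P0 of the other library. Erythroid and megakaryocyte marker cells, which should lack Cybb, gave 8.37 and 8.62 CPM. Cybb in P0 and in control P1 was therefore read as background, whereas at N1 free RNA would account for 28.7% of the control value and 38.1% of the other.

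Cyba, at chr8:122424776-122432930 on the minus strand, was present from the start of the path. Its control levels were 117 CPM in P0, 131 in P1, 389 in N1, 1543 in N2 and 1734 in N3, and then 1614, 1532 and 1294 in N4, N5 and N6. The library labelled Utx-deleted gave 91.8, 88.3, 208, 837, 1582, 1453, 1386 and 1186 CPM from P0 to N6. Its CPM was highest at N3 in both libraries and lower in every later stage, so that in CPM Cyba passed its highest stage before Cybb did. As UMIs per cell Cybb was highest at N3, with 38.7 in the control and 42.4 in the other library, and lower at each later stage. Cyba per cell was highest at N2 in the control, with 35.1, and at N3 in the other library, with 26.9. Free RNA would give at most 6.30% of any of its P0, P1 and N1 values. The erythroid and megakaryocyte marker cells, which are off this path, read Cyba at 141 CPM in the control and 106 in the other library. Both values lie above its P0 and P1 levels, so the early level was not particular to the path. A predicted gene, Gm20388, overlaps Cyba on the opposite strand, and whether counting used strand is not given in the sources used here.

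The starts of the genes for these membrane subunits and for Ncf1 are printed because they belong to an early (Cyba), a late (Cybb) and a late but low-level early (Ncf1) member. RefSeq promoters (GRCm38.p6, 250 bases before to 50 after the start) matched 3 of the 5 members by symbol. All are on the minus strand and are written 5′ to 3′ with motif matches in capitals: Cybb at chrX:9469275-9469574, Cyba at chr8:122432891-122433190 and Ncf1 at chr5:134229576-134229875. The RefSeq start of Cybb lies inside the longer GENCODE span given above.
Cybb: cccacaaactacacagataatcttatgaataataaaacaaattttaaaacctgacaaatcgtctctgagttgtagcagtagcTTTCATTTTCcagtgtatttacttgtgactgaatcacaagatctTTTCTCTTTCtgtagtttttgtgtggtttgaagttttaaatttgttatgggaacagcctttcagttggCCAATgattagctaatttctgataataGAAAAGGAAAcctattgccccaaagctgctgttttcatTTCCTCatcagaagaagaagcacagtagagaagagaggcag
Cyba: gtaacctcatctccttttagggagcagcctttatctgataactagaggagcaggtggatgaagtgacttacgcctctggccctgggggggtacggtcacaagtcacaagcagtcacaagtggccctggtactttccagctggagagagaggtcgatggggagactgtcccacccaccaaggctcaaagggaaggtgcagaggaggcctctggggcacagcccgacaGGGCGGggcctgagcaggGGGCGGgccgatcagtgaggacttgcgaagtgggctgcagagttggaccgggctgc
Ncf1: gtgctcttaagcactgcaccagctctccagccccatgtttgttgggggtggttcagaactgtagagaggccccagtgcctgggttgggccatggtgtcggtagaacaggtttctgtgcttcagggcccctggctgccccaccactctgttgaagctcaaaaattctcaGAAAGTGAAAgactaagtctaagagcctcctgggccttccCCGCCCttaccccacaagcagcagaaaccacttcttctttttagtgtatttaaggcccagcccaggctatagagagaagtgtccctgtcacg
The letters searched on both strands were GAGGAA (a purine box of the kind that ETS factors such as PU.1 bind), CCAAT (a box bound by NF-Y), GGGCGG (a GC box), a C/EBP pattern written TTNNGCAA, and an interferon response pattern made of a pair of GAAA runs with any 2 bases between them. Of 32851 promoters of this length, 28.3% held the purine box, 37.4% the CCAAT box, 35.7% the GC box, 10.8% the C/EBP pattern and 3.44% the interferon response pattern; no 2 matches in the printed windows overlap. The Cybb window held 3 matches to the interferon response pattern, beginning 168, 124 and 29 bases before the start, a CCAAT box 56 bases before it and a purine box on the opposite strand just after it. The Cyba window held GC boxes 24 and 6 bases before the start and none of the other motifs, and 60.7% of its bases were G or C, against 35.3% for Cybb. The Ncf1 window had 1 GC box, 42 bases before the start on the opposite strand, and 1 interferon response pattern, 82 bases before it. These windows thus differed in their letters, which is a description and locates no bound factor.

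Among the cytosolic subunits, Ncf1 in CPM was higher at each later stage from N1 to the end of the path in both libraries, while Ncf4 levelled off early. As UMIs per cell Ncf1 was highest at N3 and lower after it, with 10.98, 8.99, 8.09 and 6.42 per control cell from N3 to N6 and 10.7, 9.68, 8.92 and 8.65 in the other library. Ncf1, at chr5:134220053-134229625 on the minus strand, was read in the control at 21.4 CPM in P0, 40.5 in P1, 93.2 in N1, 424 in N2, 682 in N3, 742 in N4, 986 in N5 and 1069 in N6. The library labelled Utx-deleted gave 9.55, 7.97, 61.2, 276, 627, 703, 967 and 1184 CPM for Ncf1, so it was lower in every stage but the last. At N5 the interval of its log2 ratio, -0.07 to 0.01, included 0. Of 10 alternative settings, 9 at N4 and 8 at N5 gave a lower value. Ncf1 is overlapped by Gtf2ird2 on the opposite strand. Ncf4, at chr15:78244801-78262580 on the plus strand, gave 25.5, 54.4, 88.2, 402, 496, 472, 451 and 375 CPM in the control. Its levels in the other library were 9.02, 31.3, 49.4, 184, 430, 411, 408 and 335 CPM, lower in each of the 8 stages. At N4 9 of 10 alternative settings also put Ncf4 lower, and the highest log2 ratio among them was 0.03. In CPM Ncf4 was highest at N3 in both libraries, as Cyba was.

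Rac2, the GTPase, at chr15:78559167-78572783 on the minus strand and 297 kb from Ncf4, had the flattest profile. The control levels were 164 CPM in P0, 175 in P1, 277 in N1, 793 in N2, 935 in N3, 879 in N4, 960 in N5 and 936 in N6. The library labelled Utx-deleted gave 67.4, 135, 179, 419, 748, 737, 809 and 824 CPM, lower at each stage. Control Rac2 at N6 was 5.72 times its own P0 level, while Cyba stood at 11.1 times and Ncf1 at 50 times. In the library labelled Utx-deleted these folds were 12.2, 12.9 and 124, so Rac2 and Cyba were nearly alike there. The P0 level under the Ncf1 fold of 124 came from 18 UMIs. Free RNA would give 32.5% of that level, beside 12.5% of the control P0 level of Ncf1. In the erythroid and megakaryocyte marker cells Rac2, a GTPase of many blood lineages, was read at 99.1 CPM in the control and 37.1 in the other library beside the 3.19 and 2.64 CPM that free RNA would give.

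**Figure D1:**
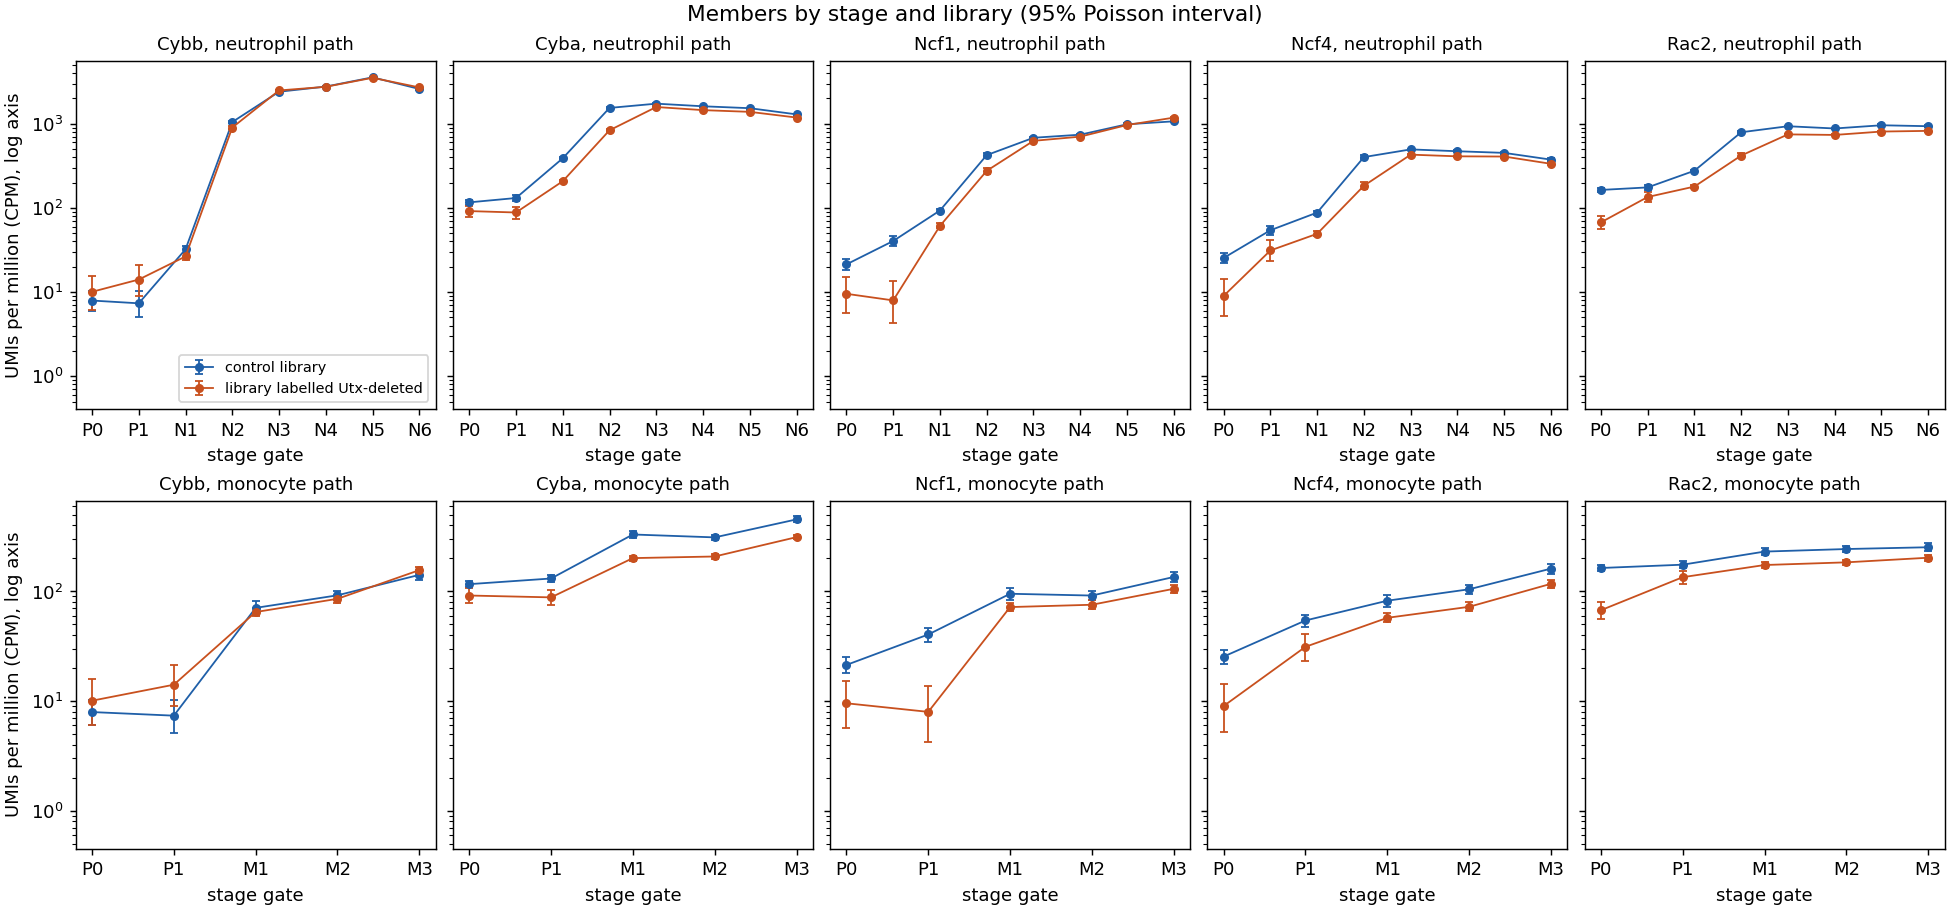
Level in CPM (log axis) of each oxidase gene by stage along the neutrophil path (upper row) and the monocyte path (lower row), for the control library (blue) and the library labelled Utx-deleted (orange); bars are 95% Poisson intervals for counting error. Cybb spans from 7.94 CPM at P0 to 3564 at N5 in the control, and the curves of the other genes lie apart between the libraries at N1 and N2 and close together from N3 on.

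Order of onset was read as the first stage at which a gene reached 50% of its own highest stage. In the control, Cyba, Ncf4 and Rac2 reached it at N2, with 89.0%, 81.0% and 82.6% of their highest level, and Cybb and Ncf1 at N3, having stood at 29.4% and 39.7% at N2. In the library labelled Utx-deleted Cyba and Rac2 passed at N2 with only 52.9% and 50.9%, and Ncf4, at 42.7%, passed at N3 with Cybb and Ncf1. The interval for Rac2 at N2 there, 47.6% to 54.3%, includes the threshold. The N2 cells of that library had more azurophil and fewer specific granule UMIs, with medians of 248 and 406 per 10000 against 127 and 543 in the control. N2 cells that did not carry both hashtags were therefore split by specific granule UMIs per 10000. From 600 on, 15 cells of that library read Cyba at 1434 CPM, Rac2 at 688 and Ncf4 at 274. The highest stage of each stood at 1582, 824 and 430, so all 3 were past 50% there. Between 20 and 300 it read 509, 314 and 130 CPM in the same order, and between 300 and 600 it read 699, 333 and 154, all below 50%. Control cells between 20 and 300 read 1281, 681 and 351 CPM. Their highest stages stood at 1734, 960 and 496, so all 3 were already past 50%. Before N2 the genes were also ordered at N1. The control stood there at 28.8% of the highest stage for Rac2, 22.4% for Cyba, 17.8% for Ncf4, 8.72% for Ncf1 and 0.905% for Cybb. The other library gave the same order at N1 with lower shares, 21.8%, 13.1%, 11.5%, 5.17% and 0.755%. Splitting the path into 10 bins along a marker index, of equal cell number over both libraries together (450 to 782 cells in a library), gave the same grouping, with Cyba and Rac2 in bin 2 and Cybb and Ncf1 in bin 3 in both libraries, and Ncf4 in bin 2 in the control and bin 3 in the other.

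The order rests on levels relative to all UMIs of a cell, because cells late in the path hold less RNA. Median UMIs per control cell went from 30435 at N1 to 15473 at N3 and 5757 at N6. Counted as UMIs per cell, an alternative added after the data were seen, all 5 genes passed 50% at N2 in both libraries and the order between them was lost. Without barcodes carrying both hashtags, 3 genes passed before Cybb in the control, and in the library labelled Utx-deleted none did.

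**Figure D2:**
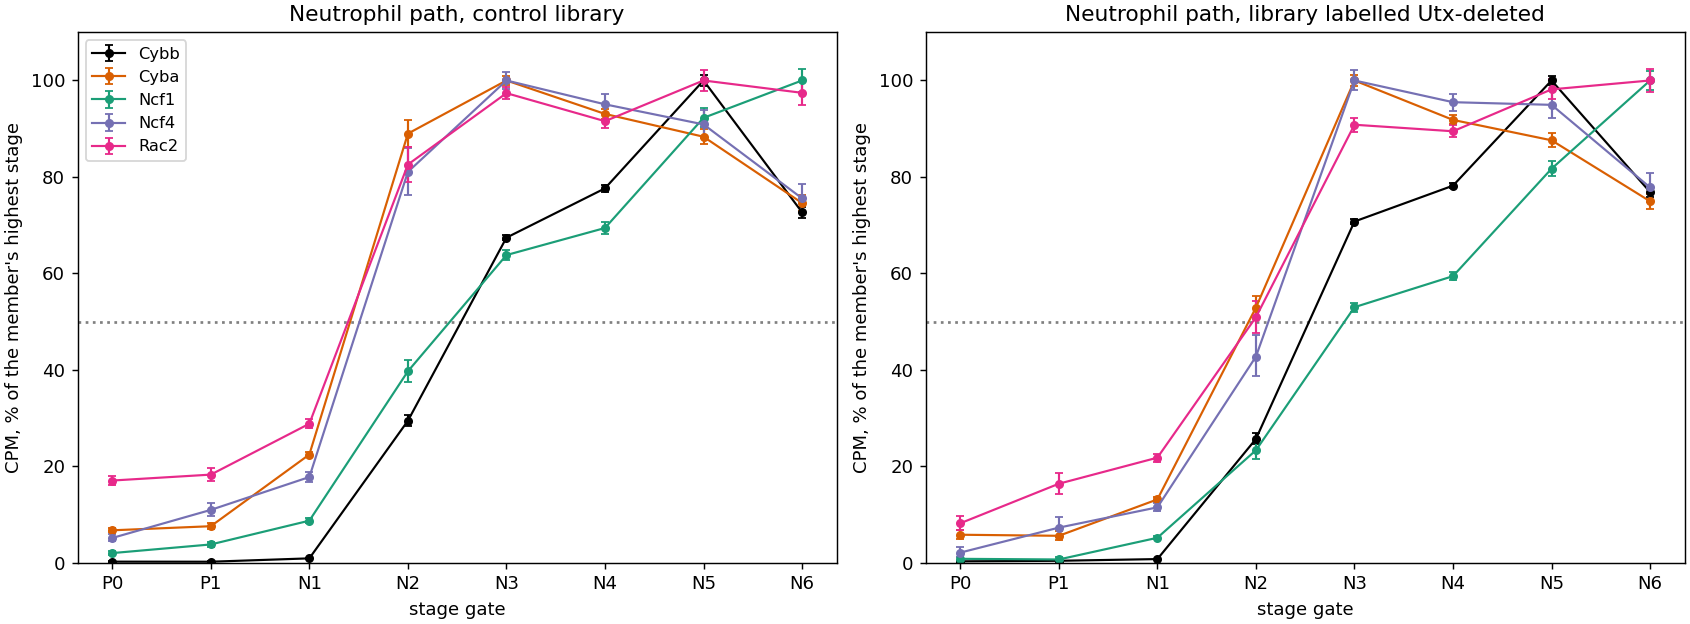
Level of each oxidase gene as a percentage of its own highest stage along the neutrophil path, in the control library (left) and the library labelled Utx-deleted (right); bars are 95% Poisson intervals and the dotted line is the 50% threshold for onset. At N2 the control has Cyba, Ncf4 and Rac2 above 80% and Cybb and Ncf1 below 40%, and the other library has all 5 below 53%.

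Along the monocyte path the genes were lower than from N2 on in the neutrophil path, and all had their highest monocyte level at M3. Cybb was read at 70.8, 92.2 and 142 CPM in control M1, M2 and M3 and at 64.9, 85.7 and 156 in the other library. Cyba gave 331, 311 and 454 CPM against 201, 208 and 313, and Ncf1 95.3, 91.8 and 136 against 72.0, 75.6 and 106. Ncf4 gave 82.4, 105 and 162 CPM against 57.5, 72.5 and 117, and Rac2 231, 244 and 253 against 174, 184 and 203. The Cybb level of the libraries overlapped within counting error in each of the 3 stages. The intervals of Cyba, Ncf1, Ncf4 and Rac2 did not overlap in any, though those of Ncf1 nearly met at M2. Rac2 stood at 64.7% of its M3 level already in control P0 and was the earliest gene in both libraries, passing 50% at P0 in the control and at P1 in the other. Cyba and Ncf1 passed at M1 in both. Ncf4 passed at M1 in the control, with 51.0% (interval 44.7% to 57.9%), and at M2 in the other library, with 49.0% (44.4% to 53.8%) at M1, both intervals including the threshold. Cybb passed at M2, but its control value at M1 lay at the threshold, with an interval of 43.3% to 57.4%, so its place behind the others is not resolved in the control.

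**Figure D3:**
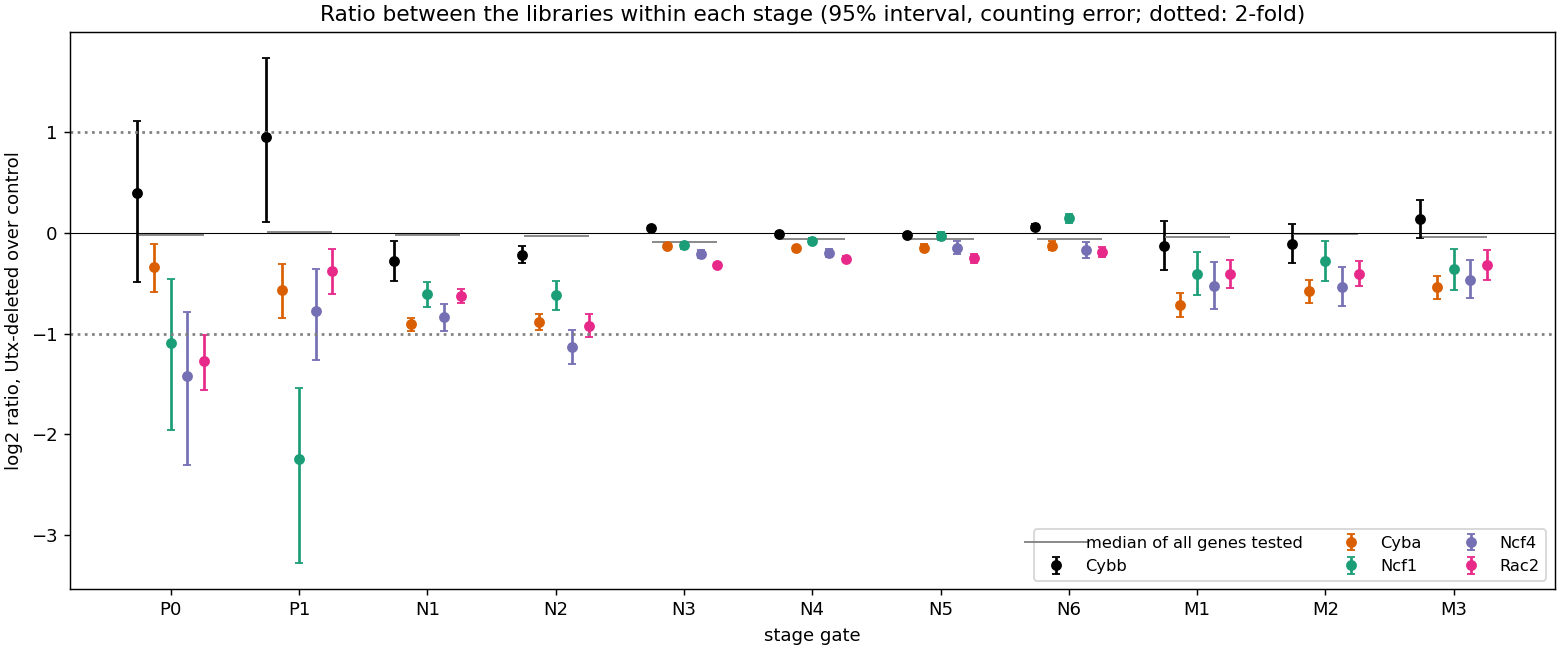
Log2 ratio of the library labelled Utx-deleted over the control for each oxidase gene within each stage; bars are 95% intervals for counting error, short grey lines mark the median of all genes tested and dotted lines a 2-fold difference. At N1 and N2 all points except Cybb lie below -0.60, and from N3 to N6 all lie between -0.33 and 0.15.

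Over all kept cells the libraries hardly differed. Cybb was read at 1488 CPM in the control and 1688 in the library labelled Utx-deleted, a log2 ratio of 0.18 (interval 0.17 to 0.19). The ratios were -0.09 for Cyba, 0.09 for Ncf1, -0.12 for Ncf4 and -0.22 for Rac2. None of the 5 passed 2-fold in either direction, where 6.75% of the 13558 genes with at least 100 UMIs did, or 1.5-fold, where 13.8% did. The median of the 5 was -0.09 and that of all genes -0.11. These pooled values mix stages in unequal numbers. With equal weight for each of the 11 stages, Cybb was at 0.00 (-0.0003), Cyba at -0.32, Ncf1 at -0.10, Ncf4 at -0.37 and Rac2 at -0.38.

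Within the Elane/Mpo-high stage, N1, all genes but Cybb were lower in the library labelled Utx-deleted by more than 1.5-fold. Cyba was read at 389 CPM (interval 379 to 399) in the control and 208 (200 to 215) in the other library, a log2 ratio of -0.91 (interval -0.97 to -0.84). Ncf4 had a ratio of -0.84 (-0.97 to -0.70), Rac2 of -0.62 (-0.70 to -0.55) and Ncf1 of -0.61 (-0.73 to -0.48). Cybb gave -0.28 (-0.48 to -0.08). Lower levels past 1.5-fold were thus seen for 4 of 5 genes, where 3.94% of the 10174 genes tested in that stage were lower past 1.5-fold, and 0 of 5 passed 2-fold, where 1.48% did. The median of the 5 was -0.62 beside -0.02 for all genes. Taking off the level expected from free RNA gave -0.92 for Cyba, -0.85 for Ncf4, -0.63 for Rac2, -0.63 for Ncf1 and -0.49 for Cybb.

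The N1 cells of the libraries had similar but not equal marker levels, a median of 289 and 304 azurophil marker UMIs per 10000, so the stage was split by that level after the data were seen. They differed in antibody tags as well: CD117 took a median of 12.3% and 18.1% of tag UMIs, CD34 0.956% and 1.88% and CD16/32 28.5% and 22.8%, and pre-neutrophil markers (Fcnb, Cebpe and Chit1) had a median of 1.48 and 1.02 per 10000. CD117 was also higher in the library labelled Utx-deleted in P0, P1, N2 and M1 to M3. CD16/32 was also lower there from N2 to N6 and from M1 to M3. These tag differences were thus not particular to N1, and whether staining or the mix of cells differed was not tested. The part of the tag differences in the N1 ratios was not tested. Between 100 and 200 per 10000, with 135 control cells and 122 of the other library, Cyba had a ratio of -0.53, Ncf1 of -1.24, Ncf4 of -0.64 and Rac2 of -0.52. Between 200 and 300 the ratios were -0.97, -0.44, -0.55 and -0.57 in the same order, and from 300 on -1.05, -0.61, -1.05 and -0.73. Each of these 4 genes was lower in the library labelled Utx-deleted in all 3 slices. Cybb was at -0.75, -0.67 and -0.19, but in the lowest slice it was read at 13.6 and 7.96 CPM beside the 9.24 and 10.1 that free RNA would give at N1.

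Each hashtag gave the same direction at N1. For cells of hashtag 1 the ratio of the library labelled Utx-deleted over the control was -0.77 for Cyba, -0.74 for Ncf4, -0.57 for Rac2, -0.56 for Ncf1 and -0.09 for Cybb. For hashtag 2 it was -1.04, -0.95, -0.70, -0.68 and -0.56. Hashtag 2 over hashtag 1 within the control was between -0.01 for Cyba and 0.31 for Cybb, and within the other library Cyba was at -0.28. Hashtags within a library thus differed by less than the libraries did for Cyba, Ncf1, Ncf4 and Rac2 at N1, and what a hashtag stands for is not given. At 1.5-fold the count of lower genes in hashtag 1 alone was 2 of 5, since Rac2 and Ncf1 fell short there, and with gate thresholds 1.5 times higher Ncf1 was at -0.53 and fell short as well. In the other direction, Cyba was lower past 2-fold in hashtag 2 alone. Cyba and Ncf4 were also past 2-fold from 300 azurophil UMIs per 10000 on. Over 10 alternative settings Cyba at N1 lay between -1.11 and -0.77. Over all kept cells hashtag 1 alone gave 0.36 for Cybb, 0.31 for Ncf1, 0.05 for Cyba, 0.02 for Ncf4 and -0.10 for Rac2, and hashtag 2 alone gave -0.06, -0.15, -0.30, -0.31 and -0.38, so Rac2 was the only gene of the 5 with the same sign in both.

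**Figure D4:**
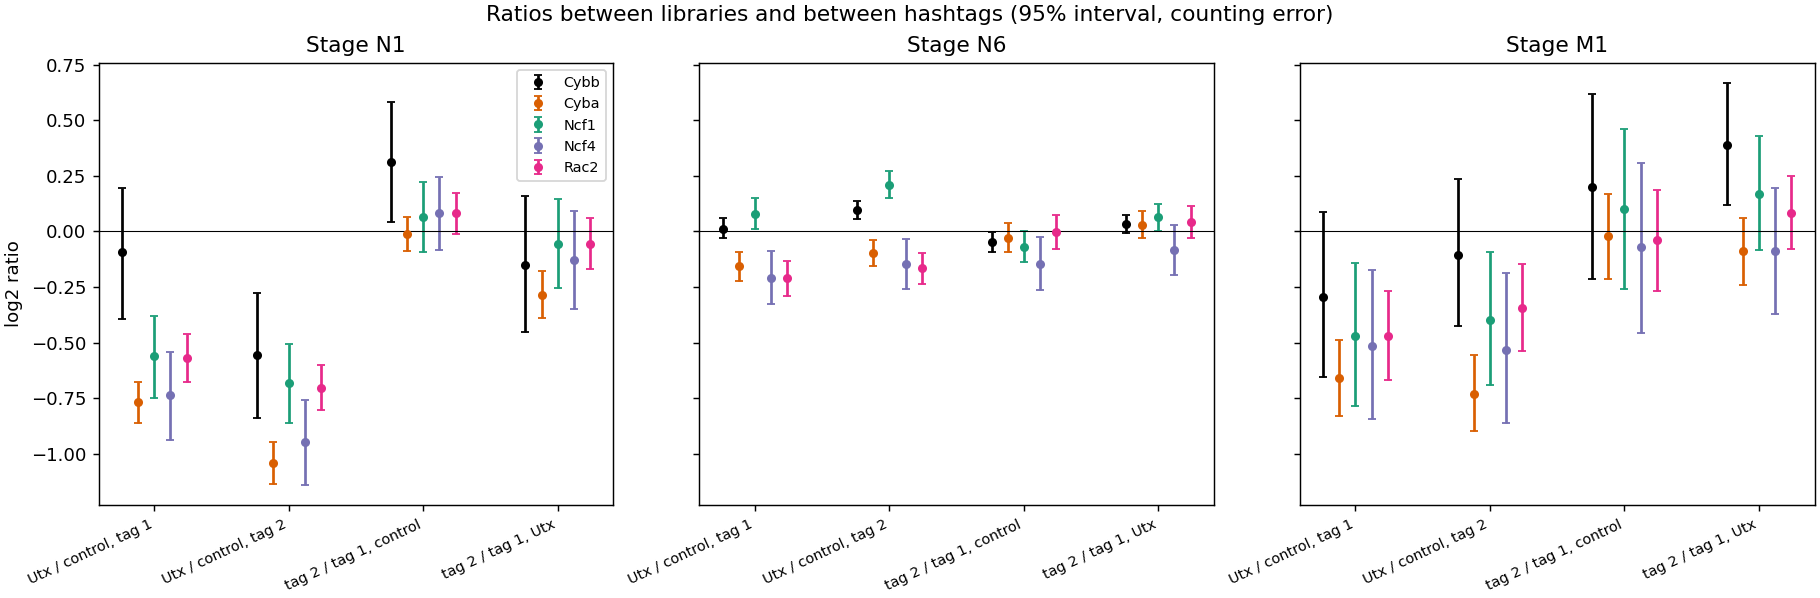
Log2 ratios at N1 (left), N6 (middle) and M1 (right) for the oxidase genes: the library labelled Utx-deleted over the control within each hashtag, and hashtag 2 over hashtag 1 within each library; bars are 95% intervals for counting error. At N1 the between-library ratios of Cyba, Ncf1, Ncf4 and Rac2 lie between -1.04 and -0.56, and the control hashtag ratios of these genes within 0.08 of 0.

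In the azurophil and specific granule overlap, N2, Ncf4 was read at 402 CPM in the control and 184 in the library labelled Utx-deleted, a log2 ratio of -1.13 (interval -1.30 to -0.96). Rac2 had a ratio of -0.92, Cyba of -0.88, Ncf1 of -0.62 and Cybb of -0.22. Of the 5 genes 1 was lower past 2-fold, where 2.42% of 5793 genes were, and 4 were lower past 1.5-fold, where 10.3% were. The stage was not alike in the libraries: azurophil markers had a median of 127 and 248 per 10000 and specific granule markers of 543 and 406. The Gr1 antibody tag took 8.63% and 24.7% of tag UMIs. Its share was higher in the library labelled Utx-deleted at every stage of both paths, with 21.1% and 43.5% at N3. The Gr1 difference was thus not particular to N2. Without barcodes carrying both hashtags, 102 and 51 cells, the ratios were -1.29 for Ncf4, -1.03 for Rac2, -1.02 for Cyba, -0.63 for Ncf1 and -0.30 for Cybb. Split further by specific granule level, those of these cells between 20 and 300 per 10000, 28 and 18 of them, gave -1.42 for Ncf4, -1.11 for Rac2, -1.33 for Cyba, -0.62 for Ncf1 and -0.21 for Cybb. Between 300 and 600, with 25 and 18 cells, the ratios were -1.06, -1.17, -1.11, -0.96 and -0.28 in the same order. From 600 on 49 and 15 cells gave -0.87 for Ncf4, -0.45 for Rac2, -0.34 for Cyba, 0.04 for Ncf1 and 0.22 for Cybb. The calls at N2 also rested on the removal of doublets: with them left in, 155 and 123 cells, Ncf4 was at -0.50, Rac2 at -0.54, Cyba at -0.40, Ncf1 at -0.23 and Cybb at 0.20, and none was past 1.5-fold. After thinning, Ncf1 was at -0.01 from 76 and 42 UMIs.

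In the earliest cells the counts were small. In P0 Rac2 was read at 164 CPM in the control and 67.4 in the library labelled Utx-deleted, a log2 ratio of -1.27 (interval -1.56 to -1.01) from 1195 and 127 UMIs. Ncf4 gave -1.42 from 186 and 17 UMIs and Ncf1 -1.09 from 156 and 18, and Cyba gave -0.34. Over 10 alternative settings Cyba in P0 lay between -1.05 and -0.20, so its ratio reached 2-fold at the low end. Of the 4 genes with at least 100 UMIs 3 were lower past 2-fold, where 2.93% of 8839 genes were. Cybb, with 58 and 19 UMIs, was at its background level. The P0 cells were not alike: the CD48 tag took a median of 61.2% and 37.2% of tag UMIs, CD117 15.8% and 26.4%, CD150 0.571% and 1.59% and CD41 1.17% and 3.69%, and early progenitor markers had a median of 10.995 and 7.92 per 10000 and azurophil markers of 3.98 and 1.92. The part of these differences in the P0 ratios was not tested. In P1 Ncf1 stood at 40.5 CPM in the control and 7.97 in the other library, from 187 and 13 UMIs, a ratio of -2.25 (interval -3.28 to -1.54). Free RNA would give 6.11% of that control value and 37.1% of the other. The erythroid and megakaryocyte marker cells gave 9.30 and 5.17 CPM of Ncf1. Ncf1 was the only gene of the 4 with at least 100 UMIs past 2-fold in P1, where 1.55% of 7504 genes were lower past 2-fold. Ncf4 gave -0.78, Cyba -0.56 and Rac2 -0.37. The P0 ratio of Ncf1 was -0.12 in hashtag 1 and -1.71 in hashtag 2, with 9 UMIs in each hashtag of the library labelled Utx-deleted. After thinning and gating again it turned to 1.19 from 7 and 4 UMIs. Its P1 ratio was -1.99 and -2.30. With gate thresholds 1.5 times higher the P1 ratio was -1.42, and after thinning, from 9 and 2 UMIs, it was -0.33, short of 2-fold. Thinning also put Rac2 in P1 at 0.15, from 35 and 14 UMIs, and Cyba at -0.17, from 20 and 6, and with gate thresholds 1.5 times lower Cyba in P1 was at -0.92. The P1 cells of the libraries differed in markers, with medians, control first, of 47.1 and 70.3 azurophil UMIs and 1.09 and 2.93 basophil or mast cell UMIs per 10000, and of 2.62% and 5.41% of tag UMIs from CD34. The part of these differences in the P1 ratios was not tested.

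From N3 on the ratios were small. At N3 they ran from -0.32 for Rac2 to 0.05 for Cybb, at N4 from -0.25 for Rac2 to -0.01 for Cybb, at N5 from -0.25 for Rac2 to -0.02 for Cybb, and at N6 from -0.18 for Rac2 to 0.15 for Ncf1. None of the 5 passed 2-fold in any of these 4 stages, where 3.5%, 3.52%, 3.46% and 4.57% of genes did. Rac2 was the lowest of the 5 in each of them. Ncf1 at N6, at 1069 CPM in the control and 1184 in the other library, was on the higher side (interval 0.10 to 0.19).

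In the F13a1/Irf8-high stages the library labelled Utx-deleted had lower values of 4 genes, and the intervals of the Cybb ratios included 0. Cyba gave log2 ratios of -0.72 (interval -0.83 to -0.60), -0.58 and -0.54 at M1, M2 and M3. Ncf4 gave -0.52, -0.53 and -0.46, Rac2 -0.41, -0.40 and -0.32, and Ncf1 -0.41, -0.28 and -0.36. Cybb gave -0.13, -0.11 and 0.14, with intervals that include 0 in each stage. None of the 5 passed 2-fold in these stages, where 1.4%, 1.41% and 1.75% of genes did, and only Cyba at M1 was lower past 1.5-fold, where 3.18% of 8262 genes were; at M2 and M3 3% and 3.65% of genes were. Leaving out the barcodes with both hashtags kept each of these directions. Other settings moved several of these values. Cyba at M1 was at -0.35 after thinning and -0.57 with gate thresholds 1.5 times lower, short of 1.5-fold in both, while at M2 and M3 thinning gave -0.89 and -0.84. In hashtags 1 and 2 Cyba was at -0.45 and -0.61 at M2 and at -0.39 and -0.63 at M3, past 1.5-fold in hashtag 2. Ncf4 at M1 was at 0.05 after thinning, from 15 and 33 UMIs. Some settings put Ncf4 and Ncf1 past 1.5-fold. Over 10 alternatives Ncf4 lay between -0.69 and 0.05 at M1, -0.89 and -0.36 at M2 and -0.68 and -0.36 at M3. Ncf1 at M3 lay between -0.71 and -0.24. Ncf1 at M2 was at -0.02 in hashtag 1 (interval -0.33 to 0.28) and -0.39 in hashtag 2. For Cybb, thinning gave 0.26, 0.82 and 1.42, from 17 and 43, 10 and 40, and 14 and 93 UMIs, gate thresholds 1.5 times lower gave 0.18 at M1 and -0.46 at M2, and hashtag 1 alone gave 0.41 at M3. Marker levels differed between the libraries here too, with a median of 221 and 279 azurophil UMIs per 10000 at M1, 176 and 213 at M2 and 134 and 169 at M3, and at M1 the CD117 tag took 9.13% and 15.8% of tag UMIs and CD16/32 35.6% and 21.2%. Their part in the ratios was not tested.

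Single cells were compared after thinning each to 2000 UMIs, with each cell kept in the stage set at full depth. At N1 Cyba was seen in 50.9% of 460 control cells (interval 46.2% to 55.5%) and, in the library labelled Utx-deleted, in 33.0% of 515 cells (29.0% to 37.3%). Rac2 was seen in 48.5% and 30.3%, Ncf4 in 18.7% and 9.71% and Ncf1 in 17.4% and 10.1%. Cybb was seen in 6.30% and 6.60% of these cells, beside 2.38% and 2.94% of erythroid and megakaryocyte marker cells thinned alike. The intervals of the libraries thus stood apart at N1 for Cyba, Rac2, Ncf4 and Ncf1 and overlapped for Cybb. All 5 genes were seen together in 1 of 460 control N1 cells and 0 of 515 of the other library, which at this depth allows a share of up to 0.583% of cells with a UMI of each. At N3 all 5 were seen together in 35.6% of control cells and 29.3% of the others, and at N5 in 42.5% and 33.4%. At M1 0 of 78 thinned control cells and 1 of 252 of the other library had all 5, a depth at which joint detection was rare: before thinning, with a median of 34818 and 27590 UMIs, 59.5% and 39.0% of M1 cells had all 5. Before thinning, with a median depth of 30435 and 26402 UMIs at N1, Cyba was seen in 99.3% and 97.5% of N1 cells, Ncf1 in 85.2% and 69.1%, Ncf4 in 88.1% and 73.3%, Cybb in 43.0% and 35.6%, and all 5 together in 36.9% and 21.7%. Cybb at full depth was seen in 18.1% and 25% of the erythroid and megakaryocyte marker cells, whose median depth was 22832 and 32225 UMIs. At N5, with 7779 and 8358 UMIs, all 5 were seen together in 90.9% and 92.8% before thinning, so at full depth the libraries did not keep the order of the thinned shares there. Thinning left out 1 and 2 shallower cells at N1 and 40 and 20 at N5.

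**Figure D5:**
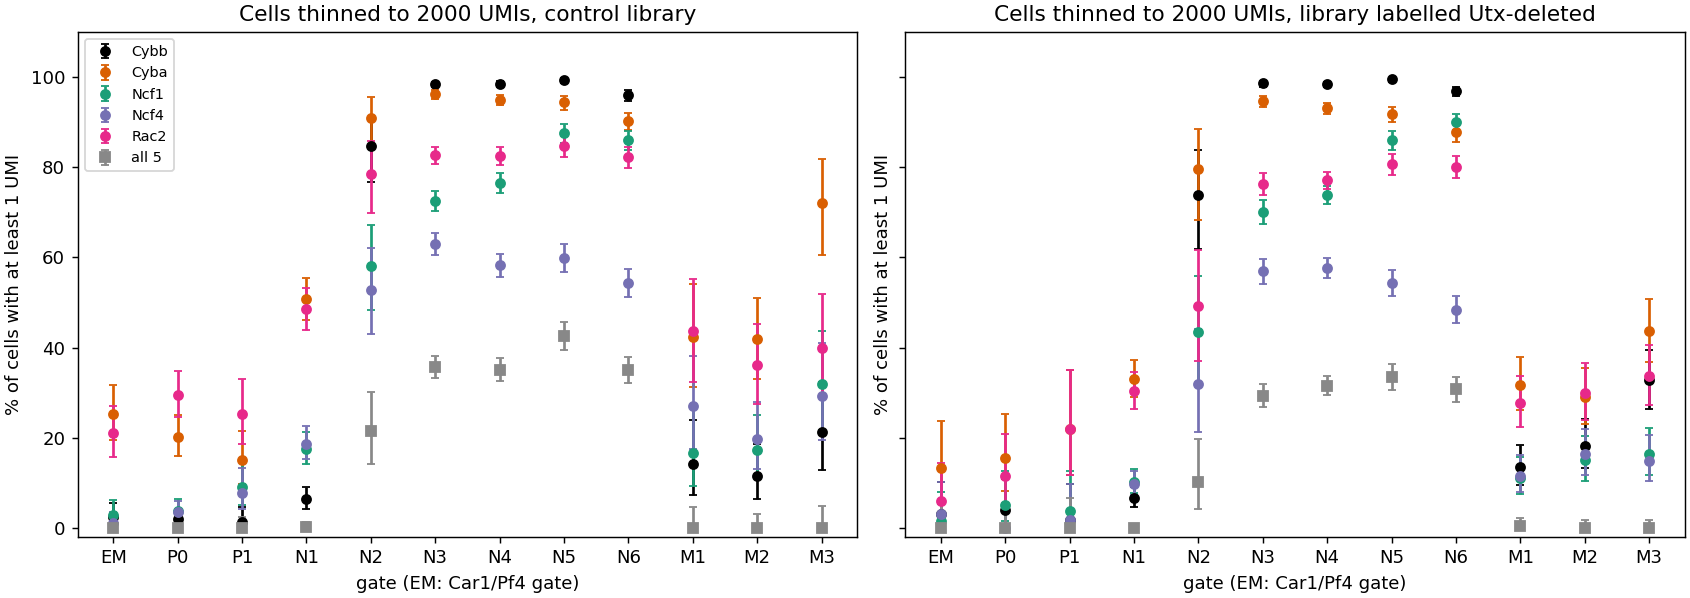
Percentage of cells with at least 1 UMI of each oxidase gene, and of all 5 together (grey squares), by gate after thinning every cell to 2000 UMIs, in the control library (left) and the library labelled Utx-deleted (right); bars are exact binomial 95% intervals and EM is the erythroid and megakaryocyte marker gate. At N1 Cyba stands at 50.9% and 33.0% in the libraries, and joint detection is near 0 until N2 and between 29% and 43% from N3 to N6.

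The rest of the oxidase pathway was read from a list of 57 further genes. Of the 11 other oxidase genes, 6 had at least 100 UMIs over all cells and 0 of these passed 2-fold, and in N1 4 had and 1 was lower, beside 6.75% of all genes past 2-fold over all cells and 1.48% lower in N1. That gene was Hvcn1, the proton channel that compensates the charge the oxidase moves, at 34.1 CPM in control N1 and 11.3 in the library labelled Utx-deleted, a log2 ratio of -1.59 (interval -1.86 to -1.34). Hvcn1 was also at -1.34 in N2 and -1.18 in M2, and at -0.84 in M1 and -0.66 in M3. In later neutrophil stages it was at -0.21 in N3, -0.10 in N4, -0.17 in N5 and -0.54 in N6 (interval -0.78 to -0.30). Within the slices of N1 it was at -3.34 (126 and 10 UMIs), -1.79 and -1.10. Within those of N2, where the libraries held different mixes of cells, it was at -1.72, -1.32 and, from 600 specific granule UMIs per 10000 on, -0.42 (interval -1.06 to 0.10). Rac1, the widely expressed relative of Rac2, gave -0.25 at N1 and -0.08 over all cells.

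Of the 18 regulators of oxidase assembly, all with at least 100 UMIs over all cells, 0 passed 2-fold over all cells and 2 of 16 were lower in N1, beside 6.75% and 1.48% of all genes. These were Itgam, the alpha chain of the integrin Mac-1, at -2.08 (29.97 and 7.03 CPM), and Itgb2, its beta chain, at -1.15 (16.0 and 7.17 CPM). Itgam was also lower past 2-fold in M1, M2 and M3, at -1.19, -1.25 and -1.36, and from N3 to N6 lay between -0.16 and 0.00 (8.30e-05). In P0, where 2.93% of all genes were lower past 2-fold and the cells differed in progenitor tags, 2 of 13 regulators were: Csf3r, the receptor for granulocyte colony-stimulating factor, at -2.55 from 590 and 25 UMIs, and Csf2rb, the common beta chain of cytokine receptors, at -2.20 from 106 and 5. Fpr2, a formyl peptide receptor that triggers the oxidase, was higher in the library labelled Utx-deleted, at 2.16 in N2 (30 and 113 UMIs) and 1.21 in N3 (51.4 and 119 CPM), where 2.92% and 0.907% of all genes were higher past 2-fold. The N2 cells differed in marker levels between the libraries, and Fpr2 was not recomputed with doublets left in. By N6 its ratio was 0.20.

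The enzymes that supply NADPH and those that handle peroxide and superoxide showed no member past 2-fold at that minimum over all cells or in any of the 11 stages. Of all genes, 6.75% were past 2-fold over all cells and between 1.4% (M1) and 5.33% (N2) in single stages. For lists this short a count of 0 is near those shares. Mpo, on the peroxide and superoxide list, is also an azurophil marker that sets the stages, so its level within a stage is not independent of the gate. The medians of these enzymes at N1 were -0.34 over 7 of 8 genes with enough UMIs and -0.10 over 13 of 13. Of the 7 transcription factors with known roles at oxidase genes, all with 100 UMIs over all cells, 1 was lower past 2-fold over all cells, where 5.36% of all genes were: Hoxa10, at -1.37 (168 and 68 UMIs). Progenitor-marker cells were 4.61% of kept control cells and 1.08% of those of the other library, and their part in this pooled value was not tested. Of 6 transcription factors in P0, where 2.93% of all genes were lower, Irf8 was lower at -2.10 (149 and 8 UMIs) and Gfi1 at -1.72 (101 and 7). In P1 Cebpe was higher, at 1.92 (96 and 129 UMIs), and Irf8 lower, where 0.666% of all genes were higher and 1.55% lower past 2-fold. Irf8 and Cebpe are themselves among the markers that set the stages. At N1 Spi1, which encodes PU.1, was at -0.07.

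Genes with profiles most like each member were ranked over the 22 stage profiles of both libraries by Pearson correlation of log2(CPM + 1), among 10923 genes with at least 500 UMIs that were neither stage markers nor members. The profiles share libraries and depth, so this is a description. Cybb was most like Pram1 (r = 0.99), Mcemp1 and Aldh3b1, and Cyba most like C3 (0.99), Galns and Tmsb4x. Ncf1 was most like Vsir (0.99), Tmsb4x and Sorl1, Ncf4 like Pstpip2 (0.98), Gas7 and Galns, and Rac2 like Rinl (0.99), Rab3d and Glrx. Galns, which lies 145 kb from Cyba on chromosome 8, was close to both Cyba and Ncf4. With Spearman's rho, 1 of 3 names stayed for Cybb (Pram1), 2 for Cyba (C3 and Galns), 1 for Ncf1 (Sorl1), 1 for Ncf4 (Galns) and none for Rac2. Among the members themselves r ran from 0.94 for Cybb and Rac2 to 0.97 for Cyba and Rac2.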

How the data were processed

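The authors made single-cell RNA and antibody-tag libraries with a 10x Genomics 3′ kit, per the labels' protocols, and the submitters' processing notes name Cell Ranger 7.1.0 and mm10. The deposited files hold raw UMI counts per feature and barcode for 32285 genes and 15 tags; the cell-calling rule, the annotation and strand setting are not given in the sources used here. Computed here (Python 3.11.15, scanpy 1.11.5, scipy 1.17.1): cells with at least 500 genes and under 10% mitochondrial UMIs were kept (349 and 214 barcodes failed), and the top 6% of Scrublet scores were left out (467 and 463), since its automatic threshold marked 1 and 0 cells and had not worked. A hashtag was called at 100 UMIs and 5 times the other.

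Stages were gated on marker UMIs per 10000 (progenitor 10; azurophil 20 and 100, or 50 in N2; specific granule 20; Fcnb/Cebpe 10; late 20 and 100; early monocyte 5; late monocyte 5 and 10). Members and lists were chosen with earlier results of these data known, and gate thresholds after the marker distributions were seen. Between 0.752% (lower azurophil) and 19.2% (upper late monocyte) of the cells of adjoining stages lay within 10% of their threshold. UMIs were summed per stage and library as CPM with exact Poisson intervals; log2 ratios add 1 UMI and carry an exact conditional binomial interval. A gene was called past 2-fold with at least 100 UMIs over both libraries; the calculation was tested on simulated counts. Shares carry exact Clopper-Pearson intervals, and 0 cells allows 3 counts. Named besides the members were Rac1 and the 10 list genes furthest past 2-fold, and the 3 genes most like each member; Spi1 was added after its values were seen. Coordinates are GENCODE M21 (99.6% of gene IDs matched). The result of 1 list gene is not reported here.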

Additional observations from a re-analysis of the deposited data

Results flagged for a closer look

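Cybb stood on opposite sides of 0 in neighbouring stages: its log2 ratio of the library labelled Utx-deleted over the control was 0.96 in the Elane/Mpo-intermediate stage (34 and 23 UMIs) and -0.28 in the Elane/Mpo-high stage (466 and 385 UMIs). Over 10 alternative settings the Cybb ratio in the intermediate stage lay between -0.0021 and 1.45, with 1 of them below 0. The difference between the stages was not tested, the gene had fewer than 100 UMIs in the intermediate stage, and free RNA would give 115% of the control value there and 74.95% of the other. Ncf1 was at -2.25 in the Elane/Mpo-intermediate stage (187 and 13 UMIs) and at 0.15 in the Retnlg/Mmp8-high stage (6917 and 9465 UMIs), the difference again not tested. In the intermediate stage free RNA would give 6.11% of the control value of Ncf1 and 37.1% of the other. Both hashtags had the same signs for these Ncf1 values, -1.99 and -2.30 in the early stage and 0.08 and 0.21 in the late one.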

How the results depend on the processing

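No paired analysis was possible because each group had 1 library. The median log2 ratio of the 5 genes over all kept cells, -0.09, was 0.0316 with TMM scaling, -0.0185 without the 50 most abundant genes, -0.0737 without doublet removal, -0.12 thinned to 2000 UMIs, 0.0487 and -0.30 for hashtags 1 and 2, -0.13 without barcodes carrying both hashtags and -0.32 with equal stage weights. TMM, with a log2 factor of -0.12 that is subtracted, raised every ratio there, so signs over all cells depend on scaling. At P0, -1.09 became -0.20 in hashtag 1. At N1, -0.62 became -0.93 after thinning and gating again, -0.70 in hashtag 2 and -0.73 from 300 azurophil UMIs per 10000. At N6, -0.13 became -0.0574 with TMM and -0.0148 without abundant genes, and at M3, -0.36 became -0.62 thinned. At M1 it lay between -0.49 and -0.31. The count of genes reaching onset before Cybb on the neutrophil path, 3 in the control, was 1 at a 25% threshold and 0 as UMIs per cell. In the library labelled Utx-deleted it was 2, and 0 at 25%, as UMIs per cell, in hashtag 2, with thresholds 1.5 times higher or without barcodes carrying both hashtags, 1 in hashtag 1, and 3 at 75% or without doublet removal. On the monocyte path it was 4 in the control, 2 along 10 bins and 1 at 75%, as UMIs per cell, thinned, in either hashtag alone or without those barcodes; in the other library it was 3, 1 at 75%, and 4 as UMIs per cell, along 10 bins, thinned, in either hashtag or with thresholds 1.5 times higher or lower. Ncf1 in P0 reversed to 1.19 when thinned (7 and 4 UMIs). The cause of each shift was not tested. In P0 and P1 the library labelled Utx-deleted had 78 and 55 cells, and 13 to 51 UMIs of Ncf1, Ncf4 or Cybb stood behind each value there.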

Other observations

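In the erythroid and megakaryocyte marker cells, 210 in the control and 68 in the library labelled Utx-deleted, Rac2 was also lower in the latter, with a log2 ratio of -1.40 from 533 and 86 UMIs, and Cyba was at -0.41. The median of megakaryocyte markers in these cells was 1.69 and 12.8 UMIs per 10000, so the gate held a different mix in the libraries, and its part in the Rac2 value was not tested. The CD11b antibody, which binds the Itgam product, took a median of 0.99% of tag UMIs in control Elane/Mpo-high cells and 0.56% in the other library, beside 29.97 and 7.03 CPM of Itgam RNA. In Camp/Ltf-high, Fcnb/Cebpe-high cells the CD11b tag stood at 22.8% and 21.6%.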
